A study of Mus musculus with 7 samples.

Results

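The 10 genes described here, of the lipid droplet surface and of triglyceride breakdown, were followed in the livers of fasted WT and SHIVA mice: Plin2, Plin4, Plin5, Cidea, Cideb, Cidec, Pnpla2, G0s2, Mgll and Abhd5. They were found on the arrays by name, as the non-control probes whose gene name is 1 of these 10, and make up 10 of 36492 gene names and 17 of 55681 probes. WT mice (n = 3) and SHIVA mice (n = 4) were C57BL/6 females of 8 to 12 weeks, all fasted for 24 h, and each liver was hybridized to a single-colour Agilent array of its own. SHIVA mice came out of an ENU mutagenesis screen and are heterozygous for a methionine-to-arginine change in the DNA-binding HMG domain of Sox17. The allele is present in the whole animal, and no fed mice are among the arrays, so values describe the fasted state only. The study hybridized these livers to ask whether the Sox17 mutation alters the transcription that PPARα drives in fasting.

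Neutral fat is stored in hepatocytes in droplets, whose surface is covered by perilipins (Plin) and, in some states, by CIDE proteins that let droplets exchange lipid and grow. In fasting, triglyceride is cleaved stepwise: the lipase ATGL, encoded by Pnpla2, takes off the first fatty acid with Abhd5 as its co-activator and G0s2 as its inhibitor, and monoglyceride lipase, encoded by Mgll, takes off the last. Several of these genes, Plin2, Plin4, Plin5, Cidec, G0s2 and Mgll among them, are known as targets of PPARα, the nuclear receptor that fatty acids activate in the fasted liver.

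The 7 arrays shared 1 slide, WT arrays in its row 1 and SHIVA arrays in its row 2. Slide position and genotype therefore cannot be told apart. Per array, 44.5% to 48.7% of probes read well above background, with 0 saturated spots. The log2 signals below are quantile normalized over the arrays, a fold change is SHIVA over WT, and 20002 genes were tested in limma with Benjamini-Hochberg adjustment. Sox17 itself lay near background, well above it on 2 of 3 WT and all 4 SHIVA arrays, and its size depended on the background handling: the fitted change was 0.69 on the log2 scale (adjusted p = 0.279 from limma), 0.24 from the mean signal and 0.09 after normexp correction. All 10 hepatocyte markers were well above background on all arrays, with albumin at 18.3 in both genotypes and others differing in either direction, as given with the markers at the end.

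The stretches of probe that read Mgll and Cidec are shown first. Mgll is shown because several probes read it and the brightest had no overlap between the genotypes. Cidec is shown because its size differs between probes. Each line gives the first 30 bases of a probe of 60, 5′ to 3′, as in the array files. Positions are those of mm9 for the whole probe, Mgll on the plus strand and Cidec on the minus strand. The place within the transcript was not determined here.
Mgll, chr6:88778292-88778351, stands for the gene: aattactaaagaagccaatgtgcactacag
Mgll, chr6:88714636-88714695: tatgatgagctggctcatatgttgaagggg
Mgll, chr6:88775976-88776035: ctttatgaaggagggagtatattttctaca
Mgll, chr6:88716266-88716325, not well above background on any array: atttgtgagacttatttggcagataatatt
Cidec, chr6:113374630-113374689, stands for the gene: tttttccacgaatgagtgaatggtattaga
Cidec, chr6:113378116-113378175: tctatgacacatactcgctttcctatgacc

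Of the 10 genes, 9 were tested. Cidea was well above background on 1 array only, that of WT replicate 3, and was left out of the test. All 9 had a lower mean in SHIVA than in WT livers, where 51.2% of all genes did, and their median log2 fold change was -1.25, against -0.01 over all genes tested. For 5 of them, Plin4, Plin5, Cidec, G0s2 and Mgll, the log2 fold change was at or below -1, a size reached by 1.27% of all genes. None of the 9 passed an adjusted p of 0.05 over all genes, which 0.375% of genes did. At an unadjusted p under 0.05, 5 were counted (Plin2, Plin5, Cidec, G0s2 and Mgll), where 13.3% of all genes were, 6.09% in the same direction. Each of these counts describes 7 mice and gives no test of the group. The genes were chosen with earlier results of these data known. In a liver, fewer cells of a type and less RNA per cell cannot be told apart.

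**Figure D1:**
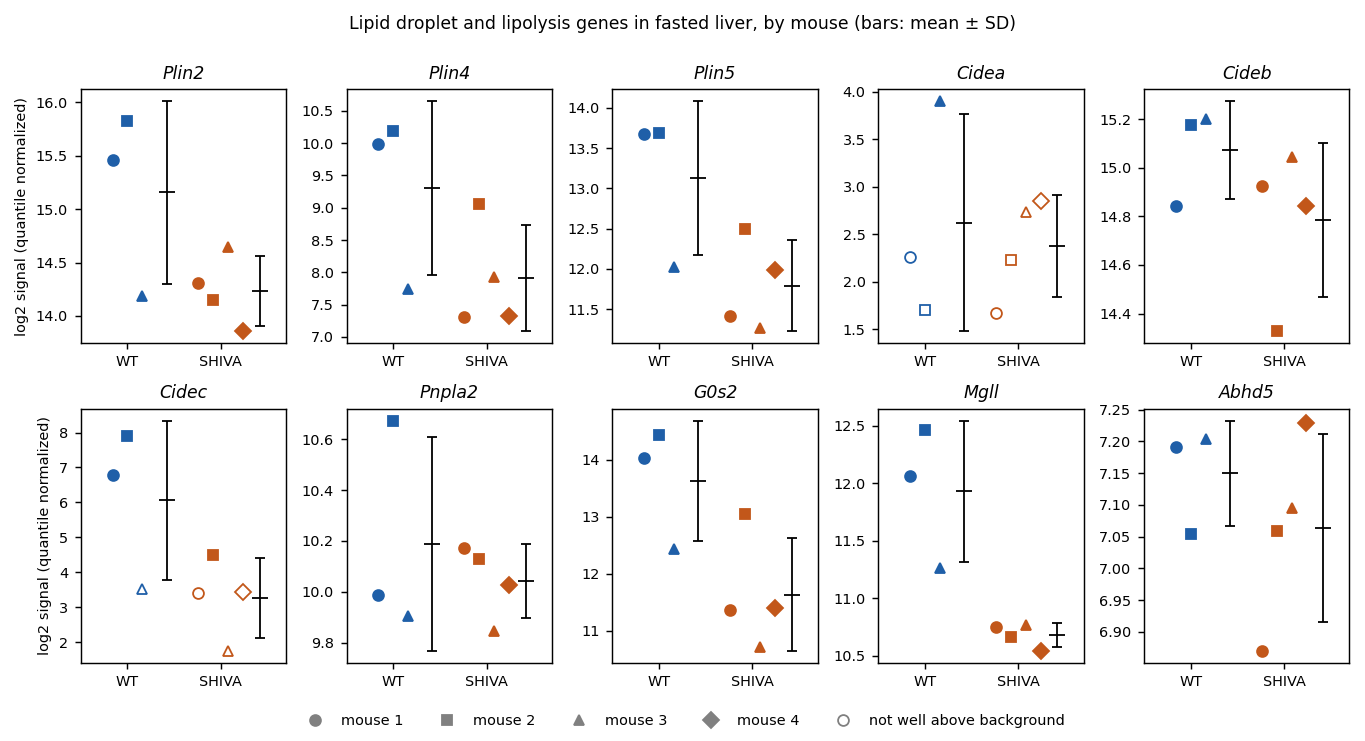
Log2 signal (quantile normalized, y axis, with its own range in each panel) of the 10 genes in each mouse, WT in blue and SHIVA in orange, with the symbol giving the replicate number and the bar the mean ± SD (n = 3 and 4). Hollow symbols were not well above background. In the panels of Plin2, Plin4, Plin5, Cidec and G0s2, WT 3 (triangle) sits within the SHIVA range, and in that of Mgll it sits above it.

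Among the coat proteins, Plin2, the perilipin that covers most hepatocyte droplets, had a log2 signal of 15.46, 15.82 and 14.19 in the 3 WT livers. In SHIVA livers it was 14.30, 14.15, 14.64 and 13.86. WT replicates 1 and 2 were above every other mouse, while WT replicate 3 lay among the SHIVA livers, so the genotypes overlapped. Its change was -0.92 on the log2 scale (95% confidence interval -1.77 to -0.08), and it did not pass (adjusted p = 0.334 from limma). It was -1.40 without WT replicate 3, with an adjusted p of 0.036 from limma, and -0.59 without WT replicate 2.

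Plin5, a perilipin of tissues that burn fat, which tethers droplets to mitochondria and binds Abhd5 and ATGL, had values of 13.67, 13.69 and 12.03 in WT livers and of 11.42, 12.50, 11.26 and 11.98 in SHIVA livers. Again WT replicates 1 and 2 were the highest of the 7, and WT replicate 3 lay below SHIVA replicate 2. This gave a log2 fold change of -1.34 (standard error, SE, 0.45, adjusted p = 0.258 from limma). Without WT replicate 3 it was -1.89, with an adjusted p of 0.040 from limma.

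Plin4, best known from adipocytes and muscle, where it covers small new droplets, had values of 9.98, 10.18 and 7.75 in WT livers and of 7.31, 9.06, 7.93 and 7.33 in SHIVA livers. Its WT values spanned more than its SHIVA values, with WT replicate 3 below SHIVA replicates 2 and 3. A log2 fold change of -1.40 had a 95% confidence interval from -2.84 to 0.05 (adjusted p = 0.394 from limma), and it was -2.17 without WT replicate 3 (adjusted p = 0.066).

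Cidec, also called Fsp27, promotes fusion of droplets and is raised in fatty liver. Its log2 signal was 6.77, 7.90 and 3.52 in WT livers and 3.41, 4.49, 1.74 and 3.43 in SHIVA livers. Only WT replicates 1 and 2 and SHIVA replicate 2 were well above background, so that the other 4 values are readings near the limit of the array and their order carries little. The fitted log2 fold change was -2.79 (SE 0.99, adjusted p = 0.277 from limma), and its size depended on how the background was handled: it was -1.42 from the mean signal without background correction and -1.07 after normexp correction. It was the lowest of the 9 fold changes as reported, but not in these, where G0s2 was lower at -1.96 and -1.95. The probe at chr6:113378116-113378175 gave -1.96 (adjusted p = 0.369 from limma over single probes). Without WT replicate 3 the value was -4.07 (adjusted p = 0.034), and without WT replicate 1, WT replicate 2 or SHIVA replicate 2 the gene was no longer above background on 3 arrays.

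Cideb, the CIDE protein of hepatocytes, which takes part in loading lipid onto very-low-density lipoproteins, had values of 14.84, 15.18 and 15.20 in WT livers and of 14.93, 14.33, 15.04 and 14.84 in SHIVA livers. The genotypes overlapped, and WT replicate 3 was here the highest mouse. The log2 fold change was -0.29, with a 95% confidence interval from -0.75 to 0.17 (adjusted p = 0.594 from limma). Its other probe gave -0.22. Cidea, the CIDE protein of brown fat, read between 1.67 and 3.90 on all arrays.

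Among the genes of lipolysis, those of the lipase ATGL and its co-activator showed the smallest differences. Pnpla2 had values of 9.99, 10.67 and 9.90 in WT livers and of 10.17, 10.13, 9.84 and 10.03 in SHIVA livers. WT replicate 2 stood above the rest and the other 6 mice were mixed. The log2 fold change was -0.14, with a 95% confidence interval from -0.62 to 0.33 (adjusted p = 0.816 from limma), and it changed sign to 0.10 without WT replicate 2. Abhd5 had values of 7.19, 7.05 and 7.20 in WT livers and of 6.87, 7.06, 7.10 and 7.23 in SHIVA livers, which overlapped throughout. Its log2 fold change was -0.09, with a 95% confidence interval from -0.41 to 0.24 (adjusted p = 0.846 from limma). The other probes of Abhd5 gave -0.29 and 0.22, which differ in sign. For the probe at -0.29, all SHIVA livers (6.73 to 7.04) were below all WT livers (7.13 to 7.33). Its adjusted p was 0.461 from limma over single probes. Its mean was 7.22 in WT and 6.94 in SHIVA livers, against 7.15 and 7.06 for the probe that stands for the gene. Whether Abhd5 overlaps thus depends on the probe.

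G0s2, the inhibitor of ATGL, had values of 14.03, 14.43 and 12.44 in WT livers and of 11.37, 13.04, 10.72 and 11.40 in SHIVA livers. WT replicates 1 and 2 were above all SHIVA livers, and SHIVA replicate 2 was above WT replicate 3. Its log2 fold change was -2.00, a 4.00-fold lower level, with a 95% confidence interval from -3.38 to -0.62. At an adjusted p of 0.233 from limma it did not pass, and leaving out single mice moved it between -2.60 and -1.60 with no adjusted p below 0.067.

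Mgll had values of 12.07, 12.47 and 11.26 in WT livers and of 10.75, 10.66, 10.76 and 10.54 in SHIVA livers. All SHIVA livers were below all WT livers, which held for 1 of the 9 genes tested and for 6.02% of all genes. Both counts use the probe that stands for each gene. The 4 SHIVA values were close together, with an SD of 0.10, against 0.61 in WT livers. The log2 fold change was -1.25 (SE 0.26, adjusted p = 0.114 from limma). It passed with the mean signal without background correction and with the authors' table (adjusted p = 0.049 each, where 0.71% of all genes passed in either), with array weights (0.037, where 1.14% passed) and without WT replicate 3 (-1.59, adjusted p = 0.014), and in no other fit of the brightest probe.

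The other Mgll probes listed above can be read against it. The probe at chr6:88714636-88714695 had values of 11.29, 11.48 and 10.57 in WT livers and of 9.81, 9.51, 9.83 and 9.66 in SHIVA livers. The probe at chr6:88775976-88776035 had values of 10.41, 10.82 and 9.30 in WT livers and of 8.88, 8.76, 8.92 and 8.68 in SHIVA livers. For both, all SHIVA livers were again below all WT livers. Their log2 fold changes were -1.41 (adjusted p = 0.057 from limma over single probes) and -1.37 (adjusted p = 0.148). The probe at chr6:88716266-88716325 gave no reading above background. By qRT-PCR in mice other than these, the study reports reduced Mgll in both fed and fasted SHIVA livers. In Sox17+/− mice it detected no difference in Mgll.

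**Figure D2:**
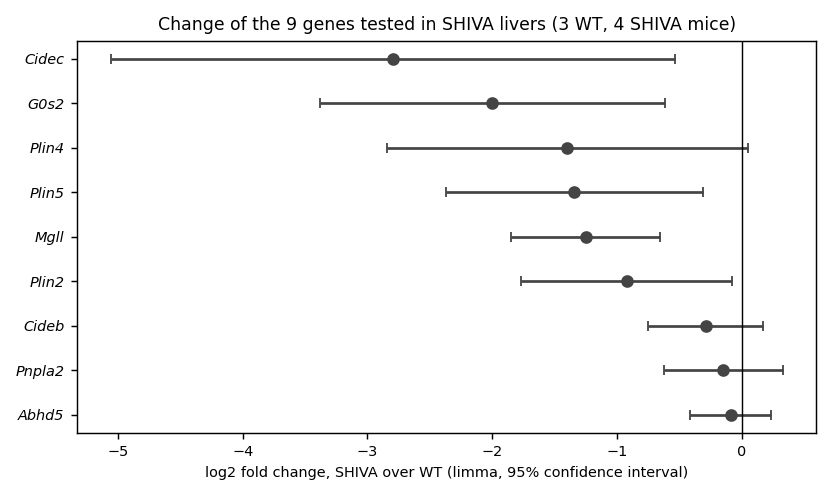
Log2 fold change of SHIVA over WT (x axis) with its 95% confidence interval from limma for the 9 genes tested (y axis), in 3 WT and 4 SHIVA mice. The intervals of Plin2, Plin5, Cidec, G0s2 and Mgll lie below 0, unadjusted for the number of genes, while those of Plin4, Cideb, Pnpla2 and Abhd5 hold 0.

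The genes thus varied among themselves in size, and for 6 of them in a shared order of mice. WT replicates 1 and 2 were above the other 5 mice for Plin2, Plin4, Plin5, Cidec, G0s2 and Mgll, which held for 11.5% of all genes. WT replicate 3 was the lowest WT mouse for 7 of the 9 genes, where 36.6% of all genes had it there. It lay within the range of the SHIVA livers for 7 of the 9, where 55.9% of all genes had it there. SHIVA replicate 2 was the highest SHIVA liver for Plin4, Plin5, Cidec and G0s2, and 33.9% of all genes had it there. The WT livers accordingly spread widely: the median SD over the 9 genes was 0.86 in WT and 0.33 in SHIVA livers, against 0.25 and 0.23 over all genes tested. These genes share the same 7 livers, so their common order is not repeated evidence.

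**Figure D3:**
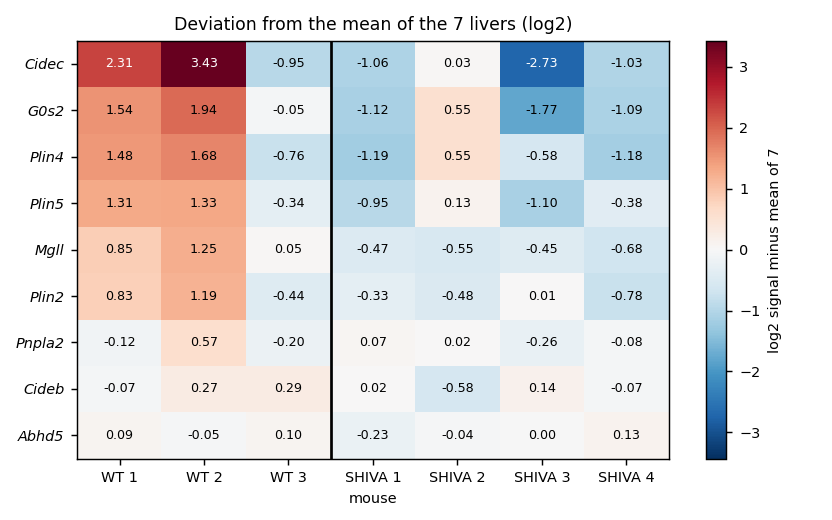
Deviation of each mouse (x axis) from the mean of the 7 livers, in log2 units (colour and printed value), for the 9 genes tested (y axis), with the line separating WT from SHIVA mice. For the upper 6 genes WT 1 and WT 2 are above the mean by 0.83 to 3.43, while WT 3 lies between -0.95 and 0.05.

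The number of genes past the threshold depended on the mice included. With all mice, 0 of the 9 passed. Without WT replicate 3, 4 of the 9 passed, Plin2, Plin5, Cidec and Mgll, where 2.1% of all genes did in that fit. For Cidec only 1 of the 4 SHIVA readings was well above background, so its pass rests on readings near the limit of the array. Leaving out any other mouse gave 0. At an unadjusted p under 0.05 the count was 2 of 8 without WT replicate 1, also 2 of 8 without WT replicate 2, and 6 of 9 without WT replicate 3. The share of all genes at that unadjusted p in these fits is not given here, so the counts do not single out the 9 genes. Over all genes, too, more passed the adjusted threshold without WT replicate 3, 416 against 75 with all mice. WT replicate 3 carries the same label as the other WT mice and its array correlated with the others at 0.977 to 0.989, where all pairs lay between 0.972 and 0.993, so it was kept.

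**Figure D4:**
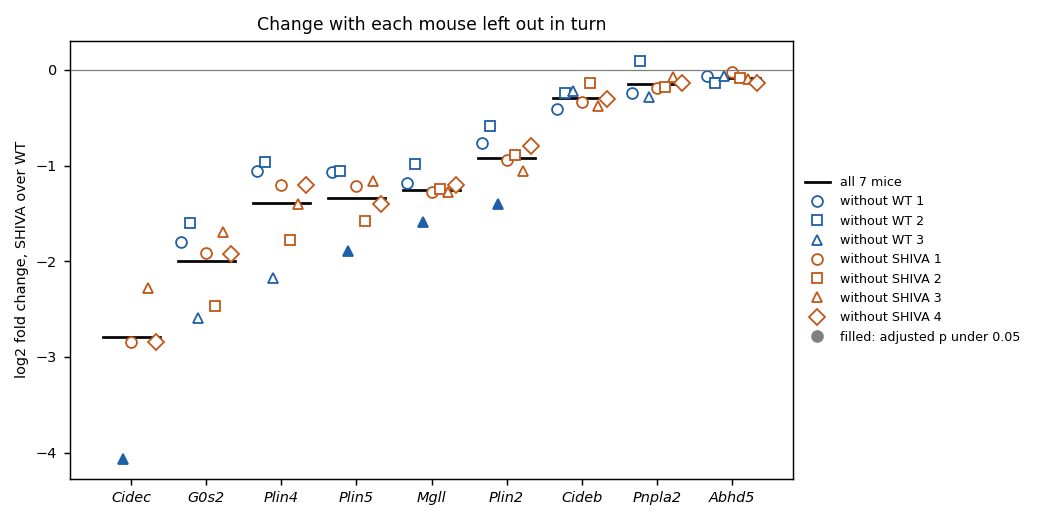
Log2 fold change of SHIVA over WT (y axis) for the 9 genes tested (x axis), with all 7 mice (black line) and with each mouse left out in turn (symbols, blue for WT and orange for SHIVA mice, filled where the adjusted p from limma was under 0.05). The filled symbols are Plin2, Plin5, Cidec and Mgll without WT 3. Cidec has no value for 3 of the fits, in which it fell under the background filter.

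The promoters of these genes were looked up in RefSeq (GRCm38.p6), as windows from 250 bases before to 50 after each start. Of the 10 genes, 9 had a window, 12 windows in all. Searched on both strands was a direct repeat of AGGTCA with 1 base between the copies, the type of element that PPARα binds with RXR. None of the 12 windows held it exactly, as 0.0396% of 32851 windows genome-wide did. With up to 2 mismatches it was found in 1 window, that of Plin2, and in 3.86% of all windows. A core of SOX sites, ATTGTT, was in 1 window, that of Cidec, where no repeat lay for it to overlap, and in 10.7% of all windows. A match is no measured binding, and enhancers outside the windows were not searched. The 250 bases before the Plin2 start are shown because this is the gene with the match, with the repeat in capitals as it reads on this strand, the motif itself running on the opposite strand.
Plin2, chr4:86670060-86670309, minus strand, GRCm38.p6: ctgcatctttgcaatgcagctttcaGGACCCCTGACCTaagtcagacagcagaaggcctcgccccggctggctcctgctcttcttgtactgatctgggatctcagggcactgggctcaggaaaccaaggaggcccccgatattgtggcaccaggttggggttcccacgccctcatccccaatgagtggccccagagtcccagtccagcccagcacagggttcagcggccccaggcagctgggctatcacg

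Other genes of the droplet surface and of droplet assembly were read from a list. Of its 19 genes, 17 were tested, 10 had a lower mean in SHIVA livers and 0 passed, with a median log2 fold change of -0.11. At an unadjusted p under 0.05 there were 3, all lower, where 13.3% of all genes were counted, 6.09% in this direction. All SHIVA livers were lower for 2 genes and higher for 1, where 12.2% of all genes had no overlap in either direction. The largest change was that of Fitm1, which helps form droplets at the endoplasmic reticulum and is known chiefly from muscle. Its values were 7.31, 7.18 and 7.84 in WT livers and 6.80, 6.51, 5.50 and 5.57 in SHIVA livers. The genotypes did not overlap, and WT replicate 3 was the highest mouse, as it was for Cideb. The log2 fold change was -1.35 (SE 0.35, adjusted p = 0.179 from limma), and -0.88 after normexp correction. Fitm2, the family member of most tissues, had -0.80 (adjusted p = 0.253), and Hilpda, a small inhibitor of ATGL, -0.49 (adjusted p = 0.587). Plin1, the perilipin of adipocytes, was not well above background on any array.

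Among 20 other hydrolases of neutral lipid, 18 were tested, 11 had a lower mean and 1 passed, with a median log2 fold change of -0.11. At an unadjusted p under 0.05 there were 2 lower and 1 higher, where 13.3% of all genes were counted. All SHIVA livers were lower for 3 genes and higher for 1, where 12.2% of all genes had no overlap in either direction. The gene that passed was Lpl, encoding lipoprotein lipase, which cleaves circulating triglyceride and is low in healthy adult liver. Lpl rose from 7.46, 6.94 and 8.06 in WT livers to 9.46, 9.95, 9.71 and 9.27 in SHIVA livers, with no overlap. Its change was 2.11 on the log2 scale (SE 0.28, adjusted p = 0.027 from limma), a 4.31-fold higher level, and this was the opposite direction to all 9 genes above. The call was lost without WT replicate 1 (adjusted p = 0.154), WT replicate 2 (0.111), SHIVA replicate 1 (0.075) or SHIVA replicate 3 (0.075), in each of which the log2 fold change stayed between 1.83 and 2.15. It was also lost with no filter on dim probes (0.118), by the methods' t-test (0.199) and with the replicate block (0.063).

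Abhd6, another monoglyceride lipase, had values of 8.42, 8.94 and 8.23 in WT livers and of 7.33, 7.54, 7.37 and 7.95 in SHIVA livers. It did not overlap either, with a log2 fold change of -0.98 (SE 0.22, adjusted p = 0.132 from limma), and passed only with array weights (0.045). Lipe, the hormone-sensitive lipase, had values of 6.00, 6.88 and 6.62 in WT livers and of 5.88, 5.90, 5.60 and 5.73 in SHIVA livers. Its log2 fold change was -0.72 (SE 0.22, adjusted p = 0.225 from limma), again without overlap, and -0.37 after normexp correction. Pnpla3 belongs to both of these lists and is counted in each.

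For PPARα targets that act outside the droplet, 30 of 30 had a lower mean in SHIVA livers and 0 passed, with a median log2 fold change of -0.74. At an unadjusted p under 0.05 there were 19, and for 13 all SHIVA livers were below all WT livers, where 6.09% and 6.02% of all genes did so in this direction. The study discusses genes of this list from these livers and by qRT-PCR in other mice. The list is therefore no independent evidence of its direction. The largest changes were those of the thioesterase gene Acot1 (-2.69, adjusted p = 0.204 from limma), of Cyp4a14, which hydroxylates fatty acids (-2.27, 0.164), and of the hormone gene Fgf21 (-2.11, 0.250). By qRT-PCR in other mice, the study counts Acot1 among transcripts that behaved alike in fasted WT and SHIVA mice. It places Cyp4a14 among those whose induction by fasting was lost in SHIVA mice at 24 h. Without WT replicate 3, Acot1 was -3.73 and Fgf21 -3.09, each with an adjusted p of 0.014 from limma, and with other mice left out they reached -2.02 and -1.50. Cyp4a14 passed with array weights (0.047) and with the replicate block (0.043), and Fgf21 was -1.15 after normexp correction. The mean log2 signal of the 30 genes was 11.97, 12.40 and 11.37 in the WT livers and 10.96, 11.10, 10.99 and 11.06 in the SHIVA livers. WT replicate 3 was thus the lowest WT mouse here too, but above all SHIVA livers.

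**Figure D5:**
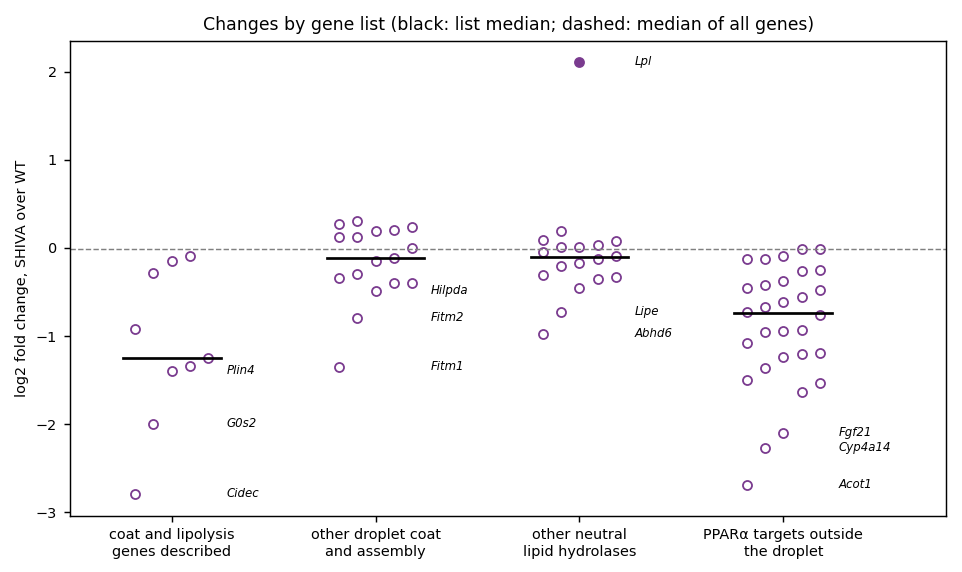
Log2 fold change of SHIVA over WT (y axis) of each gene tested in 4 lists (x axis), filled where the adjusted p from limma was under 0.05, with the list median as a black line and the median of all genes dashed. Lpl, at 2.11, is the filled point. The medians are -1.25 for the 9 coat and lipolysis genes and -0.74 for the PPARα targets. They are -0.11 for the other droplet coat and assembly genes and also for the other neutral lipid hydrolases.

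Markers of other cells were read beside these results. Of 12 adipocyte genes, 7 were not well above background on any array, among them Lep, Retn, Cfd and Plin1, and Adipoq was so on 1 SHIVA array only. Of the 4 tested, Fabp4 (0.81), Cd36 (0.75) and Pck1 (0.28), which hepatocytes or other liver cells express too, had the largest log2 fold changes. None passed, and 2 had an unadjusted p under 0.05, both higher in SHIVA livers. Of all genes, 13.3% had an unadjusted p under 0.05, the share to set beside the unadjusted count of each marker list. The summed adipocyte signal, 16.0 to 16.5 in WT and 16.3 to 16.7 in SHIVA livers on the log2 scale, was almost all Pck1, a gluconeogenic gene of hepatocytes. Without Pck1 it was 9.38 to 9.76 in WT and 10.06 to 10.44 in SHIVA livers, mostly Fabp4 and Cd36. All 10 Kupffer cell and macrophage genes had a higher mean in SHIVA livers, none passed (1 unadjusted), and the largest log2 fold changes were those of Marco (1.54), Adgre1 (0.78) and Cd5l (0.66). Their mean log2 signal ran from 9.53 to 10.73 in WT livers, highest in WT replicate 3, and from 10.06 to 10.97 in SHIVA livers. Of 10 stellate cell genes, 7 had a higher mean and none passed (3 unadjusted), led by Acta2 (0.78), Ngfr (0.73) and Rgs5 (0.67). All SHIVA livers were higher for 4 of the 10 and lower for 1, where 12.2% of all genes had no overlap in either direction. The mean log2 signal of the 10 stellate cell genes was 6.67 to 7.25 in WT and 7.23 to 7.42 in SHIVA livers, which overlapped. Their summed signal, mostly Colec11, was 12.2 to 12.3 in WT and 12.5 to 12.6 in SHIVA livers, which did not. Without Colec11 the sum was 9.63 to 10.11 in WT and 10.21 to 10.49 in SHIVA livers, also without overlap. The part of these cells in the values of the coat and lipolysis genes was not tested. Of 10 hepatocyte genes none passed and 2 had an unadjusted p under 0.05, Fgb (0.47) and Ttr (-0.32), while Tat (0.38) did not, with sums of 20.3 to 20.4 in WT and 20.4 to 20.5 in SHIVA livers. The study names Fgb as a gene that Sox17 represses in development. Its qRT-PCR, with no fasting stated, gave a larger rise of Fgb in SHIVA livers than the 1.39-fold here. Of 9 pancreatic acinar genes on the array, 3 were tested (Clps -0.22, Ctrb1 0.22, Cel -0.21), none passed (0 unadjusted) and 5 were not well above background on any array.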

How the data were processed

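For each of the 7 arrays the authors deposited scanner output from Agilent Feature Extraction 10.5.1.1, whose processed intensity had spatial trends removed, no local background subtracted and arrays not yet scaled to each other. A second deposited table holds log2 values, quantile normalized per the study's methods. Here, spots that the software flagged were left out (120 to 163 per array), processed intensities were quantile normalized in limma 3.58.1 (R 4.3.3), and spots of a probe were averaged. Gene names were updated with RefSeq (GRCm38.p6), and the probe with the highest mean stood for its gene. Genes well above background on at least 3 arrays were fitted with lmFit and eBayes, without the replicate number as a block, and called at an adjusted p under 0.05. The number of arrays limits the precision. The steps were tested on simulated data.

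The members and lists were chosen with earlier results of these data known. All members were named, with Sox17 and, from each other list, genes that passed and the 3 with the largest change. Plin3 was given besides, as a further perilipin, and does not enter the alternatives or the counts over named genes. Alternatives were other scalings and background corrections, the authors' table, other filters, the mean of probes, single probes, array weights, the replicate block, the methods' t-test and each mouse left out. RefSeq protein sequences were not used here.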

Additional observations from a re-analysis of the deposited data

Results flagged for a closer look

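In 33 sets of 4 SHIVA livers, 1 for each named gene measured on all 4 arrays, 3 held a mouse far from the others, where chance would give about 1 in 20. Fitm2 was 10.79 in SHIVA replicate 2, the other 3 livers lying from 10.34 to 10.38. Tat, a hepatocyte gene, was 15.42 in SHIVA replicate 2, the other 3 lying from 15.91 to 16.00. Fgb, also of hepatocytes, was 17.73 in SHIVA replicate 4, the other 3 lying from 18.26 to 18.27.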

How the results depend on the processing

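Of 155 alternative values for the 9 genes, 146 kept their direction and their side of the threshold, 7 passed where the value reported did not, and 2 turned: Pnpla2 was 0.10 without WT replicate 2 (-0.29 to 0.10 with single mice left out), and Abhd5 was 0.22 by the probe A_55_P2177233. Of the 9 genes, 1 (Mgll) passed with the mean signal without background correction, with the authors' table and with array weights, and leaving out single mice gave between 0 and 4. Over all genes, 75 passed, 142 with the mean signal without background correction and with the authors' table, 13 with no filter on dim probes, 229 with array weights and 0 by the methods' t-test (2299 unadjusted, against 2667 by limma). With 1 mouse left out the count ran from 3 (without WT replicate 1) to 416 (without WT replicate 3). The cause was not tested. Among the other genes named, Ctrb1 was -0.00073 without WT replicate 1 (up to 0.37 with other mice left out), and Lpl lost its call as given above. Cidec could not be fitted without WT replicate 1, WT replicate 2 or SHIVA replicate 2. Replicate numbers were shared between the genotypes, but same-numbered livers did not deviate together (correlations of -0.05 to 0.24), and 1 of 3 WT arrays correlated best with its own number. With the replicate block 32 genes and 0 of the 9 passed. Readings near background limit what can be said of Cidec, Cidea and Sox17.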
